A study of Mus musculus with 16 samples.

Results

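The matrix metalloproteinases (MMPs), their relatives of the ADAM and ADAMTS families and the TIMP inhibitors were followed across all 16 libraries of a study of mouse bone marrow-derived macrophages. A gene was taken as a member when the GENCODE M21 annotation called it protein coding and its symbol was Mmp, Adam, Adamts or Timp followed by digits and an optional letter. The rule found 78 members, made up of 22 Mmp, 33 Adam, 19 Adamts and 4 Timp genes, among 54532 gene identifiers in the count tables. Mmp1a, which the annotation lists as a polymorphic pseudogene, was not a member.

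All cells were grown from bone marrow for 7 days with M-CSF at 20 ng/mL and then cultured for 24 h. TRAP1 KO TCM (n = 4) were cells of TRAP1 knockout mice given 70% medium conditioned by YUMM1.7 mouse melanoma cells (tumor-conditioned medium, TCM). JMJD3 cKO TCM (n = 3) and JMJD3 WT TCM (n = 3) were conditional knockout and wild-type cells of the JMJD3 line under the same medium. WT TCM (n = 3) were wild-type cells given the medium, and WT naive (n = 3) were wild-type cells without it. TRAP1 is an HSP90-type chaperone of mitochondria. JMJD3 is the histone H3 demethylase encoded by Kdm6b. The sources used here give neither the Cre driver nor the deleted part of Kdm6b. Whether replicates were separate animals or cultures is not stated, so every p-value measures only the spread between libraries of a group, which may be technical.

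MMPs are secreted or membrane-anchored zinc enzymes that cut collagen, elastin, gelatin and other matrix proteins, and are made as inactive precursors. ADAMs are membrane proteins, many of which release the outer parts of cytokines and receptors from the cell surface, and ADAMTS enzymes are secreted and act mostly on matrix. TIMPs bind and block the active enzymes, and macrophages are a known source of several MMPs in inflamed and tumor tissue. RNA levels say nothing of activation or inhibition of the proteins.

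The libraries held 15361604 to 22426820 counts each, and CPM are counts per 1000000 of the scaled library total. Trap1 stood at 0.0377 CPM in TRAP1 KO TCM, against 67.7 CPM in WT TCM. Kdm6b stood at 25.6 CPM in the libraries labelled JMJD3 cKO TCM, against 25.1 CPM in JMJD3 WT TCM, so the targeted gene was not lower there (log2 fold change 0.04 ± 0.07 SE, adjusted p = 0.749, edgeR's quasi-likelihood test with Benjamini-Hochberg adjustment). The counts are per whole gene, so a loss of part of Kdm6b was not tested. Every direction given for these libraries rests on their label. Macrophage markers (10 genes) had mean sums of 29313 CPM in TRAP1 KO TCM, 29137 in WT TCM and 16512 in WT naive. In the JMJD3 line the sums were 14146 CPM in JMJD3 cKO TCM and 17199 in JMJD3 WT TCM. The largest part was Lyz2, at 17273, 17925, 7971, 4577 and 7417 CPM in that order of groups. Not every marker followed the sum, with Adgre1 highest in WT naive (3122 CPM) and Fcgr1 in JMJD3 WT TCM (2585 CPM). The part of macrophage markers in the results was not tested. The 6 melanoma markers summed to at most 0.481 CPM in any library. Stromal markers (13 genes) summed to 8.72 to 9.88 CPM in TRAP1 KO TCM, 2.15 to 3.44 in JMJD3 cKO TCM, 2.97 to 4.43 in JMJD3 WT TCM, 0.633 to 0.882 in WT TCM and 20.0 to 20.9 in WT naive. Neutrophil markers (12 genes) summed to 7.27 to 8.50, 46.7 to 50.1, 32.5 to 35.6, 8.74 to 11.6 and 60.8 to 64.4 CPM in the same order of groups. The 6 libraries of the JMJD3 line stood apart from the other 10 on the first principal component, which held 50.7% of the variance. The stromal and neutrophil sums are given again beside the members they are set against, whether or not these moved the same way.

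The family took a mean of 0.480% of the counts in TRAP1 KO TCM, 0.401% in JMJD3 cKO TCM, 0.370% in JMJD3 WT TCM, 0.397% in WT TCM and 0.431% in WT naive. Of the 78 members, 26 reached 1 CPM in some group, 17 reached 10 CPM and 10 reached 100 CPM. The filter on low counts passed 30 members in at least 1 model and 24 in every model. Of the 48 that it never passed, 18 had no count in any library and the other 30 had at most 54 counts over all 16 libraries. The 18 were Adam5, Adam6a, Adam6b, Adam18, Adam20, Adam24, Adam25, Adam26a, Adam26b, Adam30, Adam34, Adam39, Adamts3, Adamts16, Adamts19, Mmp1b, Mmp7 and Mmp20. Many Adam genes of this group are known from testis, and Mmp20 from developing teeth. The 30 with a few counts were 10 Adam genes, 10 Adamts genes, 8 Mmp genes, Timp3 and Timp4. Among the members that passed, several stayed low, with group means of at most 1.49 CPM. These were Adam1a, Adam4 and Adam32, known mainly from testis, Adam22, which lacks protease activity, and Adamts1, Adamts7, Adamts13, Adamts14, Mmp11 and Mmp28. Adamts7 acts on cartilage matrix protein, and Adamts14 trims procollagen.

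Per kilobase of merged exons, Adam8, a surface protease of leukocytes, was the most abundant member in every group. Its level was 451 ± 5.79 CPM per kilobase in TRAP1 KO TCM, 443 ± 2.31 in JMJD3 cKO TCM, 460.5 ± 10.7 in JMJD3 WT TCM, 388 ± 4.04 in WT TCM and 466 ± 2.73 in WT naive (SD). By counts, Adam8 alone made up 45.4% to 52.9% of the family in the group means. Timp2, an inhibitor that also takes part in the activation of MMP2 by MMP14, and the sheddase gene Adam9 came next, at 88.9 to 132 and 66.2 to 103 CPM per kilobase. Timp2 was ahead in every group other than JMJD3 WT TCM, where Adam9 led by 103 to 88.9 CPM per kilobase.

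Adam15, Adam17 and Adam10 stood below Timp2 and Adam9 and held between 25.1 and 78.9 CPM per kilobase in every group. In every group other than WT TCM an MMP stood ahead of some of them, as Mmp12 did of Adam15 in JMJD3 cKO TCM (49.9 against 38.9). Per kilobase of the longest transcript Adam15 stood ahead of Adam9, with 123.9 against 95.7 in TRAP1 KO TCM and 92.1 against 88.9 in WT TCM. In these groups the order of Adam9 and Adam15 thus depends on the length used. Adam9 led by either length in JMJD3 cKO TCM, JMJD3 WT TCM and WT naive. Adam17 encodes the enzyme that releases TNF from the cell surface, and Adam10 the enzyme that makes the first cut in Notch receptors. Among the MMPs the leading gene differed between groups. Per kilobase it was Mmp9 in TRAP1 KO TCM (44.6 ± 2.20), Mmp12 in JMJD3 cKO TCM (49.9 ± 0.867), Mmp13 in JMJD3 WT TCM (50.7 ± 0.509), and Mmp12 in WT TCM (26.8 ± 0.257) and WT naive (41.6 ± 0.871). With the longest transcript as the length, Mmp14 stood ahead of Mmp9 in TRAP1 KO TCM, so that lead depends on the length used.

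**Figure D1:**
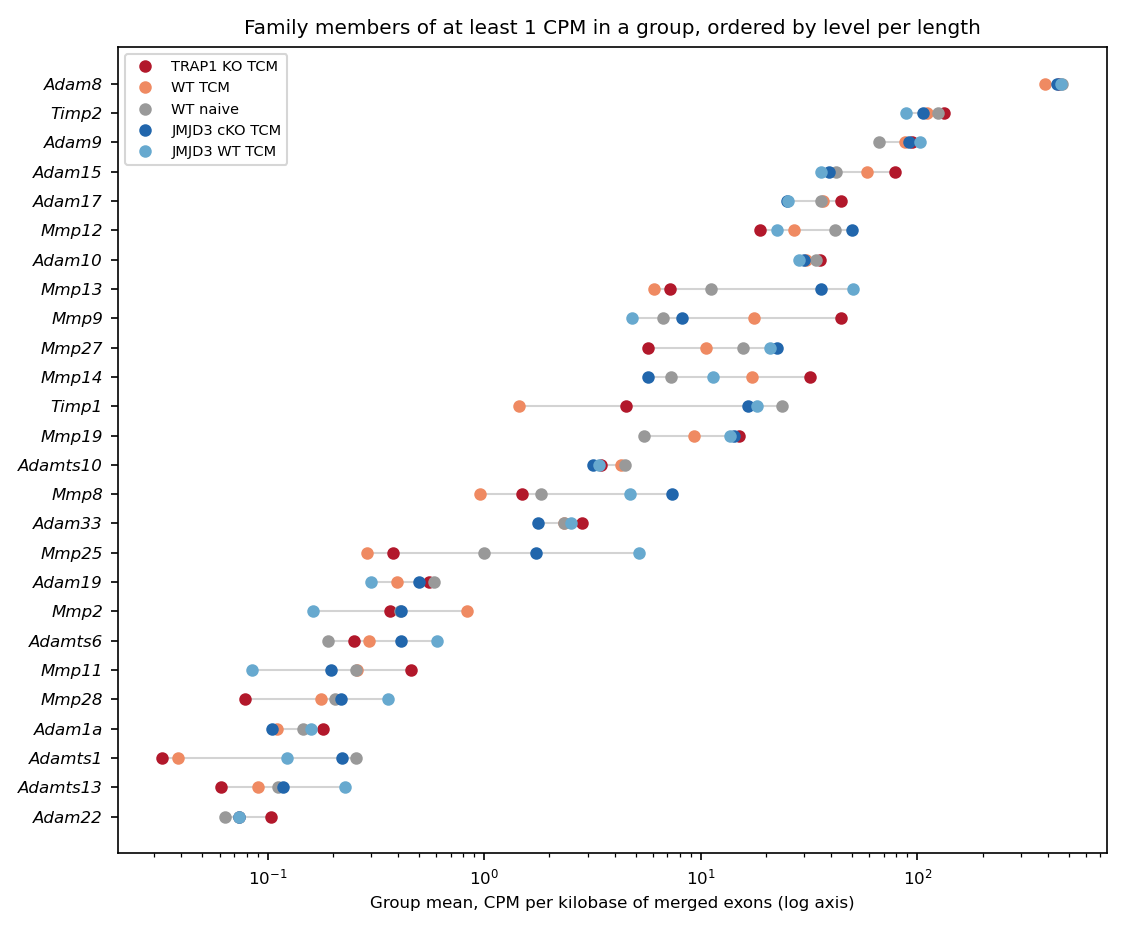
Group mean level of the 26 members that reached 1 CPM in a group, in CPM per kilobase of merged exons on a log axis, 1 colour per group. Adam8 lies far to the right in every group, while Timp1, Mmp13, Mmp9 and Mmp25 span wide ranges between groups.

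The effect of TCM in wild-type cells was read from WT TCM against WT naive. Mmp14 and Mmp9 rose more than 2-fold and Mmp19 rose by less. Timp1 fell 16.3-fold, and the collagenase genes Mmp8 and Mmp13, the elastase gene Mmp12, Mmp25, Mmp27 and Adamts1 also fell. Of the 27 members that passed the filter, 7 rose and 11 fell, where a call is an adjusted p under 0.05 from edgeR's quasi-likelihood test. Among all 14078 genes tested 42.2% were called, 21.6% higher and 20.6% lower. The median log2 fold change was -0.18 over the tested members and -0.01 over all genes. Groups did not overlap in 19 of the 27 members, beside 50.1% of all genes. A change of at least 2-fold was called for 3 members up and 3 down, 22.2% of those tested, beside 5.27% of all genes (2.41% up and 2.86% down). Of the 3 down, Adamts1 passed the filter only through WT naive, where it was higher, so these shares depend in part on the filter. Members below the filter are not in these counts.

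Mmp14, the membrane-anchored enzyme that activates the precursor of MMP2, had 107, 105 and 95.3 CPM in WT TCM, against 42.3, 44.0 and 44.3 CPM in WT naive. Every WT TCM library lay more than 2-fold above every WT naive library. The log2 fold change was 1.24 ± 0.04 SE (adjusted p = 1.34e-47, edgeR). Mmp9, the gelatinase B gene, had 63.9, 63.8 and 59.0 CPM in WT TCM, against 23.0, 26.0 and 22.2 CPM in WT naive. Again the WT TCM libraries were all higher, with a log2 fold change of 1.39 ± 0.05 (adjusted p = 4.49e-27, edgeR). Mmp2, the gelatinase A gene, was low, at 2.17, 2.81 and 3.48 CPM in WT TCM, against 1.19, 1.93 and 0.989 CPM in WT naive. The highest WT naive library came near the lowest WT TCM library, but the groups did not overlap (log2 fold change 1.01 ± 0.25, adjusted p = 3.9e-04, edgeR). Fibroblasts are a known source of Mmp2, and stromal markers fell over this comparison. Osteoclasts make Mmp9 and Mmp14, and of the osteoclast markers (5 genes) 2 of 3 tested were called lower and none higher, with sums, mostly Acp5, of 25.1 to 25.6 CPM in WT TCM and 75.7 to 81.2 CPM in WT naive. Mmp9 and Mmp14 rose while that sum was lower. Mmp19, whose product acts on basement membrane proteins, averaged 33.0 ± 1.97 CPM in WT TCM and 19.3 ± 0.808 CPM in WT naive (SD, n = 3 each).

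Mmp25 and Mmp8 fell. Mmp25, a membrane-anchored leukocyte MMP, had 1.97, 1.32 and 1.27 CPM in WT TCM, against 4.96, 5.11 and 5.84 CPM in WT naive. All WT TCM libraries were below all WT naive libraries, with a log2 fold change of -1.78 ± 0.19 (adjusted p = 2.92e-13, edgeR). Mmp8, the neutrophil collagenase gene, fell to 2.31 ± 0.244 CPM in WT TCM, against 4.43 ± 0.291 CPM in WT naive (-0.93 ± 0.18). The neutrophil markers fell over the same comparison, with 7 of 8 tested called lower and none higher, and summed to 8.74 to 11.6 CPM in WT TCM against 60.8 to 64.4 CPM in WT naive. Ly6g and Mpo were at 0 counts in WT TCM. Ltf and Camp had 20 and 14 counts there and, with Mpo, passed the filter through WT naive. The count of markers called lower therefore depends on how such genes entered the test. Mmp9, which neutrophils also make, rose while that sum fell. The part of such cells in the change of Mmp8 and Mmp25 was not tested, and in these bulk samples fewer cells of a type and less RNA per cell cannot be told apart.

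Timp1, the inducible secreted inhibitor, had 1.16, 1.38 and 1.33 CPM in WT TCM, against 20.4, 21.01 and 21.8 CPM in WT naive. In counts these were 21 to 25 per WT TCM library and 444 to 489 per WT naive library. The log2 fold change of -4.03 ± 0.14 was the largest of any tested member here, and larger than any from TRAP1 or JMJD3 loss (adjusted p = 1.35e-43, edgeR). Timp2 fell to 431 ± 4.34 CPM in WT TCM, against 487 ± 7.48 CPM in WT naive, a change of -0.18 ± 0.02. Timp3, a matrix-bound inhibitor, had 1 count over the 3 WT TCM libraries and 28 over the 3 WT naive libraries, a ratio of scaled counts of 0.0440 with a 95% interval of 0.0011 to 0.266 for counting error alone.

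Adamts1, a secreted enzyme that cuts versican and aggrecan, had 0.252, 0.110 and 0.253 CPM in WT TCM, against 0.919, 1.63 and 1.51 CPM in WT naive. These are 2 to 5 counts per WT TCM library, and the log2 fold change of -2.69 ± 0.47 carries that uncertainty (adjusted p = 1.05e-06, edgeR). Adamts2, which trims procollagen, had 0 counts in WT TCM and 20 in WT naive, at least 5.41-fold lower when 3 counts over the group are taken as the limit. Timp1, Timp3, Adamts1 and Adamts2 are all also expressed by fibroblasts. The stromal markers fell with them, 8 of 8 tested, with sums of 0.633 to 0.882 CPM in WT TCM and 20.0 to 20.9 CPM in WT naive, and Col3a1, Dcn, Pdgfra and Fbln2 at 0 counts in WT TCM. The tested markers were low in WT TCM and passed the filter through the other groups of that model. The part of stromal cells in these falls was not tested. Timp1 lies within Syn1 on the opposite strand, and whether counting used the strand is not given in the sources. Syn1 averaged 48.9 CPM in WT TCM and 42.5 CPM in WT naive, so it did not fall with Timp1.

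Mmp12, the macrophage elastase gene, had 196, 192 and 195 CPM in WT TCM, against 295, 307 and 301 CPM in WT naive (log2 fold change -0.63 ± 0.03). Mmp13, an interstitial collagenase gene, averaged 16.2 ± 1.28 CPM in WT TCM and 29.9 ± 0.598 CPM in WT naive (-0.89 ± 0.07). Mmp27, an MMP of less known function, averaged 23.4 ± 1.51 CPM in WT TCM and 34.5 ± 1.03 CPM in WT naive (-0.56 ± 0.07). Of the ADAMs, Adam15 rose (0.48 ± 0.02), as did Adam9 (0.40 ± 0.02), while Adam8 (-0.26 ± 0.01), Adam10 (-0.16 ± 0.03) and Adam19 (-0.56 ± 0.17) fell. Adam17 held 262 ± 5.97 CPM in WT TCM and 257 ± 2.63 CPM in WT naive and was not called (0.03 ± 0.02, adjusted p = 0.387, edgeR). Also not called were Adam1a, Adam4, Adam22, Adam33, Adamts7, Adamts10, Mmp11 and Mmp28, with log2 fold changes between -0.38 and 0.22. Adamts6, a close relative of Adamts10, at 2.28 ± 0.278 CPM in WT TCM and 1.48 ± 0.184 CPM in WT naive, was called higher (0.62 ± 0.24, adjusted p = 0.0299, edgeR). That call was lost without WT naive replicate 1 (adjusted p = 0.0862), WT naive replicate 2 (0.0902), WT TCM replicate 2 (0.109) or WT TCM replicate 3 (0.0812), with no filter (0.0583) and with DESeq2 (0.0613).

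**Figure D2:**
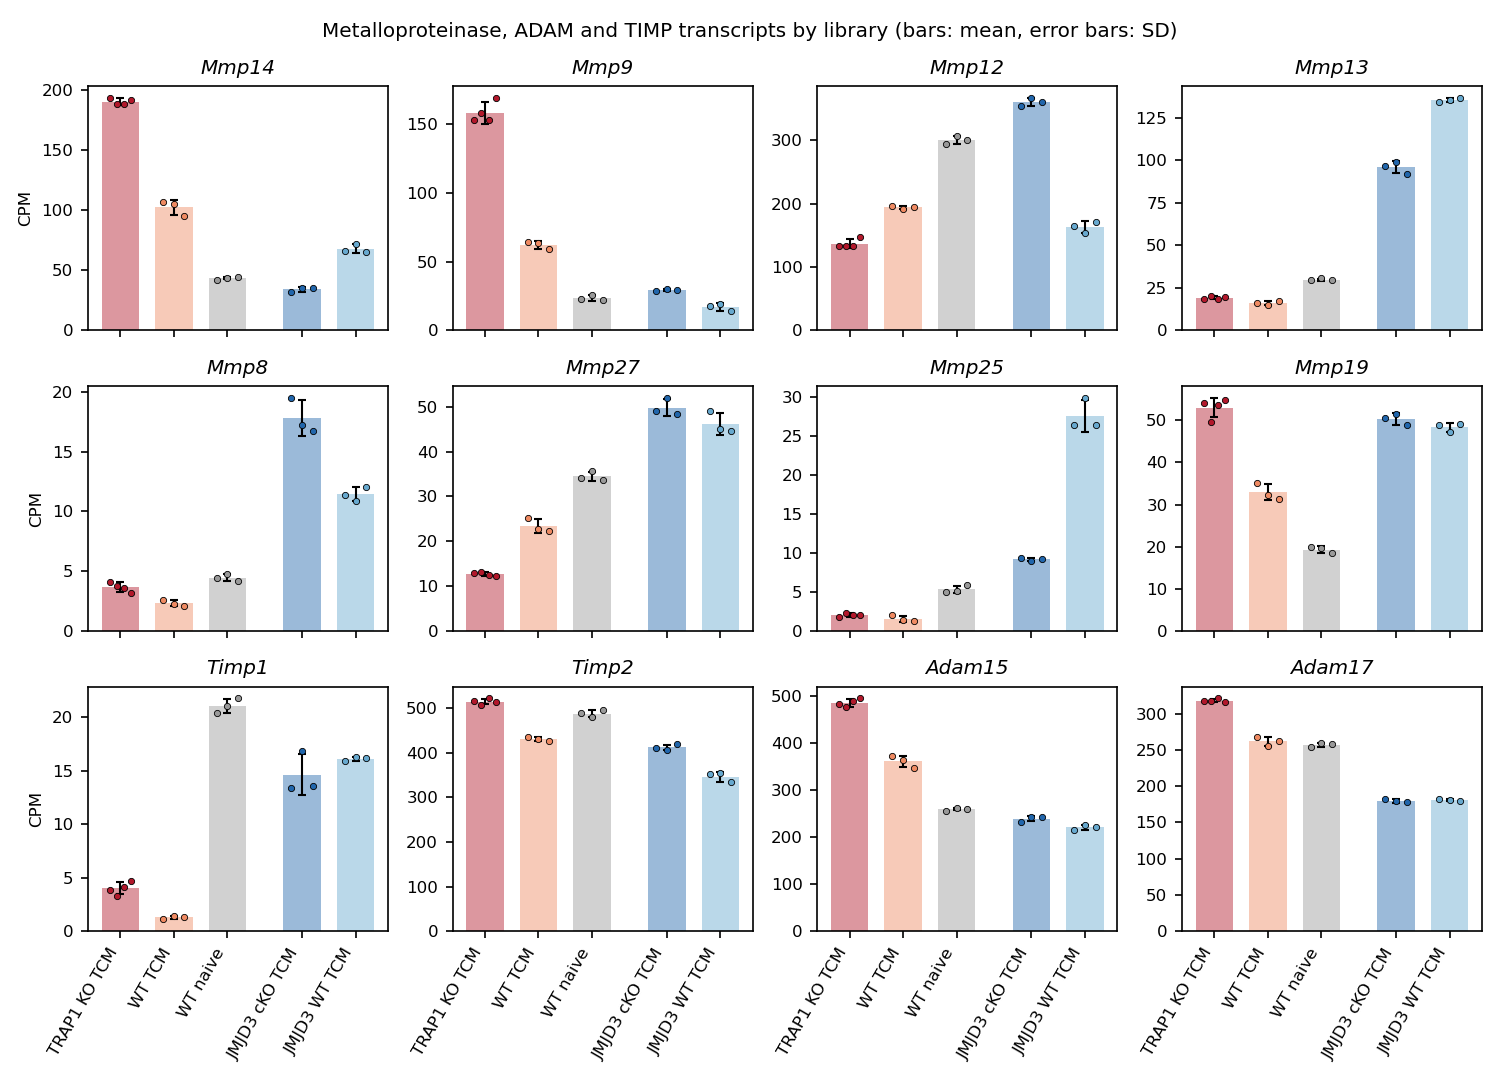
CPM of 12 members in each of the 16 libraries, 1 panel per gene with its own axis from 0, 1 point per library, bars for the group mean and error bars for the SD. Mmp14 and Mmp9 are highest in the TRAP1 KO TCM libraries, Timp1 is lowest in the WT TCM libraries, and Mmp13, Mmp8 and Mmp25 are higher in both groups of the JMJD3 line than in the other 3 groups.

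The effect of TRAP1 loss under TCM was read from TRAP1 KO TCM against WT TCM. Mmp9 rose 2.55-fold and Timp1 3.11-fold, Mmp14, Mmp19 and Adam15 rose by less, and Mmp12, Mmp27 and Mmp2 fell. Of 27 tested members 15 rose and 5 fell. Among all 14078 genes tested 42.2% were called, 21.2% higher and 21% lower, and the median log2 fold change was 0.27 over the tested members and 0.01 over all genes. By family, 6 of 11 tested Mmp genes rose and 4 fell, 7 of 10 tested Adam genes rose and none fell, 1 of 4 tested Adamts genes fell, and both tested Timp genes rose. Groups did not overlap in 19 members, beside 43% of all genes, and 2 members rose and 2 fell at least 2-fold, 14.8% of those tested, beside 5.58% of all genes (2.85% up and 2.73% down). Of the 2 that fell by that much, Mmp28 had overlapping groups and a call that several alternatives lost (below). WT TCM is the treated group of the TCM comparison and the control group here, so the values of both comparisons share those 3 libraries.

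Mmp9 had 152, 158, 153 and 169 CPM in TRAP1 KO TCM, against the 59.0 to 63.9 CPM of the WT TCM libraries. Every knockout library lay more than 2-fold above every WT TCM library, with a log2 fold change of 1.35 ± 0.04 (adjusted p = 1.2e-31, edgeR). Mmp14 had 194, 188, 188 and 192 CPM in TRAP1 KO TCM, against 95.3 to 107 CPM in WT TCM. The groups were likewise separate (0.90 ± 0.03, adjusted p = 3.78e-44, edgeR). Mmp14 lies on chromosome 14 from 54431612 to 54445364 (GRCm38, plus strand). Of the 30 other tested genes within 1000000 bases of it on either side, 21 were called in this comparison and 8 changed at least 2-fold. Among all genes 42.2% were called and 5.58% were called at 2-fold or more. Such windows were made for every tested member, and that of Mmp14 held the most 2-fold changes in this comparison. That of Mmp9 had 17 of 35 genes called and 6 changed at least 2-fold. In WT TCM against WT naive 11 of 30 genes near Mmp14 were called and 3 changed at least 2-fold (all genes 42.2% and 5.27%). In JMJD3 cKO TCM against JMJD3 WT TCM 8 of 30 were called and none changed at least 2-fold (all genes 35.1% and 2.21%). The part of the neighbourhood of Mmp14 in its change was not tested.

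Mmp2 was lower in the knockout, at 1.02, 1.14, 1.49 and 1.29 CPM in TRAP1 KO TCM against 2.17, 2.81 and 3.48 CPM in WT TCM. The groups did not overlap at these 19 to 55 counts per library (log2 fold change -1.16 ± 0.24, adjusted p = 2.41e-05, edgeR). Mmp12 had 133, 133, 134 and 147 CPM in TRAP1 KO TCM, against 192 to 196 CPM in WT TCM. All knockout libraries were lower, 1 of them standing apart from the other 3 (-0.50 ± 0.03). Mmp27 fell to 12.7 ± 0.395 CPM in TRAP1 KO TCM, against 23.4 ± 1.51 CPM in WT TCM (-0.88 ± 0.07, n = 4 and 3). Mmp19 averaged 53.0 ± 2.27 CPM in TRAP1 KO TCM and 33.0 ± 1.97 CPM in WT TCM (0.69 ± 0.05).

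The collagenase genes rose by less. Mmp13 averaged 19.2 ± 0.779 CPM in TRAP1 KO TCM and 16.2 ± 1.28 CPM in WT TCM (0.26 ± 0.07, adjusted p = 0.0017, edgeR). Mmp8 averaged 3.64 ± 0.412 and 2.31 ± 0.244 CPM in TRAP1 KO TCM and WT TCM (0.66 ± 0.17, adjusted p = 0.0012, edgeR). The neutrophil marker sum was not higher in the knockout, at 7.27 to 8.50 CPM in TRAP1 KO TCM against 8.74 to 11.6 CPM in WT TCM. Mmp25 averaged 2.02 ± 0.234 CPM in TRAP1 KO TCM and 1.52 ± 0.389 CPM in WT TCM, with overlapping groups, and was not called (adjusted p = 0.133, edgeR). Without WT TCM replicate 1 it was (adjusted p = 0.0408).

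Timp1 had 3.85, 3.32, 4.12 and 4.69 CPM in TRAP1 KO TCM, against 1.16, 1.38 and 1.33 CPM in WT TCM. All knockout libraries were higher, though still far below the 20.4 to 21.8 CPM of WT naive (log2 fold change 1.64 ± 0.18, adjusted p = 3.09e-13, edgeR). Syn1, on the opposite strand, was also higher, at 72.5 CPM in TRAP1 KO TCM and 48.9 CPM in WT TCM (0.57 ± 0.04). Adamts2 had 33 counts over the 4 TRAP1 KO TCM libraries and 0 in WT TCM, at least 7.54-fold higher taking 3 counts in the group as the floor. Timp3 had 14 counts over the TRAP1 KO TCM libraries and 1 over the WT TCM libraries, a ratio of 9.59 with a 95% counting interval of 1.46 to 406. The stromal markers moved with them, 7 of 8 tested higher, with sums of 8.72 to 9.88 CPM in TRAP1 KO TCM and 0.633 to 0.882 CPM in WT TCM. As above, the tested markers passed the filter through groups other than WT TCM. No stromal marker was at 0 counts in TRAP1 KO TCM, and their part in these rises was not tested. Adamts1, also known from fibroblasts, was not called (-0.19, adjusted p = 0.855, edgeR). Timp2 averaged 515 ± 5.68 CPM in TRAP1 KO TCM and 431 ± 4.34 CPM in WT TCM (0.26 ± 0.02).

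**Figure D3:**
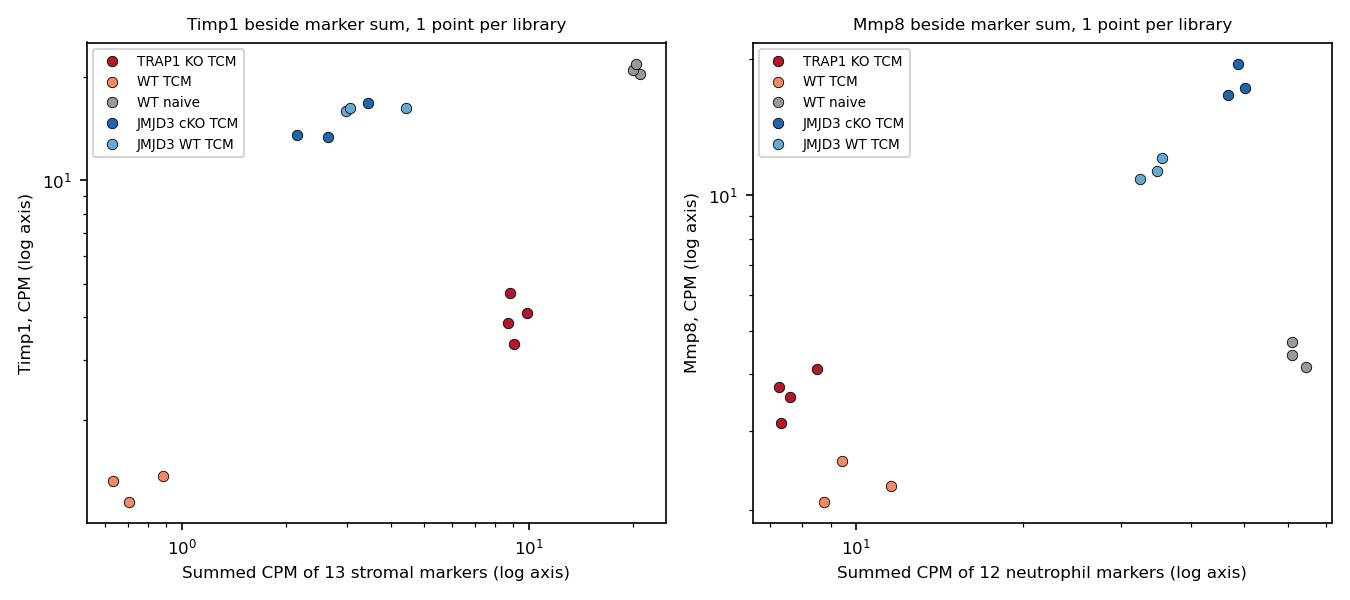
Timp1 CPM against the summed CPM of 13 stromal markers, and Mmp8 CPM against the summed CPM of 12 neutrophil markers, both on log axes with 1 point per library. The stromal sum and Timp1 are both highest in WT naive and lowest in WT TCM, but the JMJD3 line has more Timp1 than TRAP1 KO TCM at a lower stromal sum, and the neutrophil sum is highest in WT naive and Mmp8 is highest in JMJD3 cKO TCM.

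Shedding enzymes rose by small amounts in TRAP1 KO TCM. Adam15 averaged 485 ± 8.10 CPM in TRAP1 KO TCM and 360 ± 12.6 CPM in WT TCM (log2 fold change 0.44 ± 0.02), and Adam17 averaged 318 ± 2.32 and 262 ± 5.97 CPM in those groups (0.29 ± 0.02). Adam8 (0.23 ± 0.01), Adam10 (0.22 ± 0.03), Adam9 (0.11 ± 0.02) and Adam19 (0.51 ± 0.16) rose as well. Adam33 was called higher (0.27 ± 0.09, adjusted p = 0.0091, edgeR) with overlapping groups, which was lost on leaving out WT TCM replicate 3 (adjusted p = 0.175) or TRAP1 KO TCM replicate 4 (0.0617). Adam1a was not called (0.71 ± 0.31, adjusted p = 0.0545, edgeR) but passed without TRAP1 KO TCM replicate 4 (0.037). Adamts10, whose product binds fibrillin, fell to 28.6 ± 1.39 CPM in TRAP1 KO TCM, against 35.4 ± 1.33 CPM in WT TCM (-0.30 ± 0.06). Adam4, Adam22, Adamts6 and Adamts7 were not called, at log2 fold changes from -0.39 to 0.55.

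Mmp11, the stromelysin-3 gene, had 19 to 34 counts per TRAP1 KO TCM library and 7 to 17 per WT TCM library (log2 fold change 0.88 ± 0.34, adjusted p = 0.029, edgeR). Its call was lost without WT TCM replicate 1 (adjusted p = 0.279), WT TCM replicate 2 (0.0633), TRAP1 KO TCM replicate 1 (0.0551) or TRAP1 KO TCM replicate 2 (0.105), and with DESeq2 (0.0700). Mmp28, the epilysin gene, had 3 to 11 counts per TRAP1 KO TCM library and 5 to 18 per WT TCM library (-1.17 ± 0.45, adjusted p = 0.0274, edgeR). That call was lost without WT TCM replicate 1 (adjusted p = 0.184), WT TCM replicate 2 (0.114), TRAP1 KO TCM replicate 1 (0.0863) or TRAP1 KO TCM replicate 2 (0.0879), and with DESeq2 (0.0654). In both genes the groups overlapped.

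**Figure D4:**
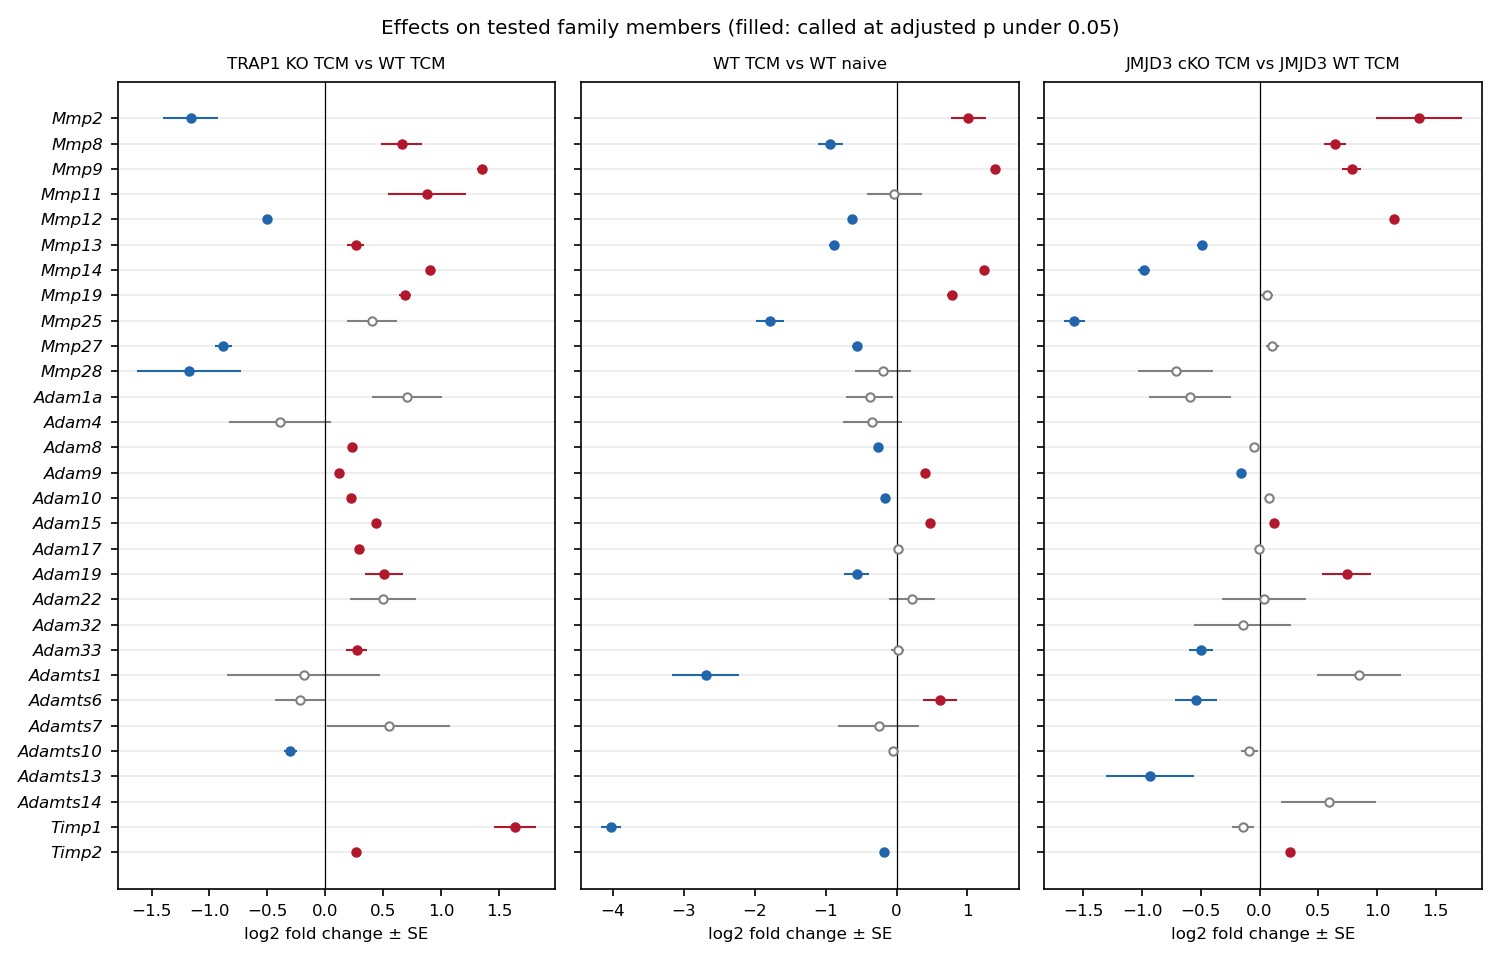
Log2 fold change (x axis) of each member tested in a main comparison, with its SE as a bar, filled where called at an adjusted p under 0.05 and open where not. In TRAP1 KO TCM against WT TCM no Adam gene is called lower, and Mmp14, Mmp12 and Mmp2 lie on opposite sides of 0 in the TRAP1 and JMJD3 panels.

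The effect of JMJD3 loss under TCM was read from the libraries labelled JMJD3 cKO TCM against JMJD3 WT TCM, whose Kdm6b counts did not differ (above). Mmp12 rose 2.22-fold, Mmp9, Mmp8 and Adam19 also rose, and Mmp14, Mmp25 and Mmp13 fell. Of 27 tested members 7 rose and 7 fell. Among all 13476 genes tested 35.1% were called, 17.3% higher and 17.8% lower, and the median log2 fold change was -0.01 over the tested members and 0.01 over all genes. Groups did not overlap in 18 members, beside 44.9% of all genes, and 2 members rose and 1 fell at least 2-fold, 11.1% of those tested, beside 2.21% of all genes (0.839% up and 1.37% down).

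Mmp12 had 355, 368 and 361 CPM in JMJD3 cKO TCM, against 164, 154 and 172 CPM in JMJD3 WT TCM. Every library labelled JMJD3 cKO TCM was more than 2-fold above every JMJD3 WT TCM library, and also above every library of the other 3 groups (log2 fold change 1.15 ± 0.03, adjusted p = 3.43e-29, edgeR). Mmp14 had 31.8, 35.3 and 35.4 CPM in JMJD3 cKO TCM, against 66.4, 72.1 and 65.4 CPM in JMJD3 WT TCM. The cKO libraries were all lower, by a log2 fold change of -0.98 ± 0.05 (adjusted p = 4.85e-19, edgeR). Mmp13 had 96.9, 99.0 and 92.1 CPM in JMJD3 cKO TCM, against 134, 136 and 137 CPM in JMJD3 WT TCM, groups that were again separate (-0.49 ± 0.04, adjusted p = 1.45e-14, edgeR).

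Mmp25 had 9.35, 8.96 and 9.24 CPM in JMJD3 cKO TCM, against 26.4, 29.9 and 26.3 CPM in JMJD3 WT TCM. The groups stood 2.98-fold apart (log2 fold change -1.58 ± 0.09, adjusted p = 5.62e-19, edgeR). Mmp9 averaged 29.1 ± 0.575 CPM in JMJD3 cKO TCM and 17.0 ± 2.64 CPM in JMJD3 WT TCM (0.78 ± 0.08, adjusted p = 1.35e-10, edgeR). Mmp8 averaged 17.8 ± 1.48 and 11.4 ± 0.597 CPM in those groups (0.64 ± 0.09, adjusted p = 4.51e-07, edgeR). Neutrophil markers were also higher, 4 of 7 tested against 1 lower, with sums of 46.7 to 50.1 CPM in JMJD3 cKO TCM and 32.5 to 35.6 CPM in JMJD3 WT TCM. Mmp25 fell while that sum rose, and the part of neutrophils in the rises of Mmp8 and Mmp9 was not tested. Endothelial markers (5 genes, mostly Kdr) summed to 60.6 to 66.5 CPM in JMJD3 cKO TCM and 147 to 148 CPM in JMJD3 WT TCM, and their part in the falls was not tested.

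Mmp2 had 1.16, 1.30 and 1.69 CPM in JMJD3 cKO TCM, against 0.433, 0.693 and 0.510 CPM in JMJD3 WT TCM. At 7 to 37 counts per library the groups did not overlap (1.36 ± 0.36, adjusted p = 0.0028, edgeR). Timp2 averaged 412 ± 5.88 CPM in JMJD3 cKO TCM and 346 ± 11.03 CPM in JMJD3 WT TCM (0.25 ± 0.03). Timp1 was not called, at 14.6 ± 1.93 CPM in JMJD3 cKO TCM and 16.1 ± 0.20 CPM in JMJD3 WT TCM (-0.14 ± 0.09, adjusted p = 0.27, edgeR). Mmp19 (0.06 ± 0.05), Mmp27 (0.11 ± 0.05) and Mmp28 (-0.71 ± 0.32) were not called either. Mmp27 was called without JMJD3 WT TCM replicate 1 (adjusted p = 0.0455).

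Adam19, the meltrin beta gene, averaged 3.56 ± 0.269 CPM in JMJD3 cKO TCM and 2.13 ± 0.518 CPM in JMJD3 WT TCM (0.74 ± 0.21, adjusted p = 0.0046, edgeR). Adam15 rose (0.12 ± 0.03), while Adam9 (-0.15 ± 0.03) and Adam33 (-0.50 ± 0.10) fell. Adam17 held 180 ± 2.22 CPM in JMJD3 cKO TCM and 181 ± 1.34 CPM in JMJD3 WT TCM (-0.01 ± 0.03, adjusted p = 0.908, edgeR). Adam8 (-0.05 ± 0.02) and Adam10 (0.08 ± 0.03) were not called. Adam8 was called without JMJD3 WT TCM replicate 1 (adjusted p = 0.0124). With all 16 libraries in the model it was called too (0.0079), as was Adam10 (0.0454). The remaining tested members Adam1a, Adam22, Adam32, Adamts1, Adamts10 and Adamts14 were not called, at log2 fold changes from -0.59 to 0.84. Adamts6 fell to 3.21 ± 0.471 CPM in JMJD3 cKO TCM, against 4.71 ± 0.328 CPM in JMJD3 WT TCM (-0.54 ± 0.18, adjusted p = 0.0133, edgeR). Its call was lost without JMJD3 cKO TCM replicate 1 (adjusted p = 0.0517) or replicate 2 (0.0511).

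Adamts13, which cleaves von Willebrand factor, averaged 0.583 ± 0.0498 CPM in JMJD3 cKO TCM and 1.12 ± 0.367 CPM in JMJD3 WT TCM (-0.93 ± 0.38, adjusted p = 0.0499, edgeR). The call was lost under 10 of 13 alternatives. Among them, leaving out JMJD3 WT TCM replicate 3 gave the highest adjusted p (0.309). Without JMJD3 WT TCM replicate 1 it was 0.0667, and without JMJD3 cKO TCM replicates 1, 2 and 3 in turn it was 0.120, 0.0844 and 0.108.

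Several of the MMP genes above lie side by side on chromosome 9. In GRCm38 (GENCODE M21) Mmp13 runs from 7272514 to 7283331, Mmp12 from 7344381 to 7369499, Mmp8 from 7558456 to 7568485 and Mmp27 from 7571396 to 7581885, all on the plus strand. Between and beyond them, Mmp1b, Mmp20 and Mmp7 had no count, Mmp3 had 10 and Mmp10 had 52 counts over all libraries. In JMJD3 cKO TCM against JMJD3 WT TCM, Mmp12 rose and its neighbour Mmp13 fell, and Mmp8 rose while Mmp27, the next gene downstream, was not called. In TRAP1 KO TCM against WT TCM, Mmp13 and Mmp8 rose while Mmp12 and Mmp27 fell. All 4 genes fell in WT TCM against WT naive, by log2 fold changes from -0.93 to -0.56.

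Because the members of this cluster moved apart, the 250 bases before a RefSeq start of each (RefSeq, GRCm38.p6, plus strand) are shown, with the AP-1 motif TGANTCA in capitals where a search of both strands found it. AP-1 is the Fos and Jun family of factors, known to act at MMP promoters. The windows are chr9:7272264-7272513 for Mmp13, chr9:7347124-7347373 for Mmp12, chr9:7558179-7558428 for Mmp8 and chr9:7571146-7571395 for Mmp27.
Mmp13: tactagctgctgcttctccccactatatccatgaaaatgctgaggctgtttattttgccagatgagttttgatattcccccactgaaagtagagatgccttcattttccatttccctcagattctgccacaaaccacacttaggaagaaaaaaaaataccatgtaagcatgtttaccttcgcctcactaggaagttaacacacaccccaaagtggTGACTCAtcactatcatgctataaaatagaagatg
Mmp12: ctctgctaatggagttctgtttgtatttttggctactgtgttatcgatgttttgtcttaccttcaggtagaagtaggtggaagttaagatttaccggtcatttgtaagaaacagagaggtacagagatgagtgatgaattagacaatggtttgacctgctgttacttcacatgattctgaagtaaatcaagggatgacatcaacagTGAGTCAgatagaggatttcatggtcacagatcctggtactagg
Mmp8: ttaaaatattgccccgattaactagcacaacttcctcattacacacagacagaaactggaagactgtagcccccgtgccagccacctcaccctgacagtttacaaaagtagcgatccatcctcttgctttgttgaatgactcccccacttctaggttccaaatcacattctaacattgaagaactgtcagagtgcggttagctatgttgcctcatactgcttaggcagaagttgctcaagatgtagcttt
Mmp27: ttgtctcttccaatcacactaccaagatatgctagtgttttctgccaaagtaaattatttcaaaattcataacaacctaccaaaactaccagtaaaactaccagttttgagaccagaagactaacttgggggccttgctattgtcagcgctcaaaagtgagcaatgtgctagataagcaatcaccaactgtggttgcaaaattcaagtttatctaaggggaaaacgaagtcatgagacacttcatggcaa
The motif begins 35 bases before the start in Mmp13 and 44 bases before it in Mmp12. For Mmp12 the window with the match is the one shown, and it lies inside the gene as placed above. A further RefSeq start of Mmp12, with a window at chr9:7344147-7344396 by the start of the gene, has no match. Nor have the windows of Mmp8 and Mmp27. A match was found in 7.82% of all genes that have a RefSeq window (2113 of 27025). Among the 20 tested members with a window 3 have a match, namely Mmp12, Mmp13 and Adam19. A match is a description of letters, and the binding of any factor was not measured.

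Whether TRAP1 loss and JMJD3 loss differed in their effect was tested as a contrast, the TRAP1 effect minus the JMJD3 effect, in 1 model of all 16 libraries. These effects share no library. With the labels as given, 17 of 30 tested members differed, 13 with the TRAP1 effect higher and 4 with it lower. Because Kdm6b was not lower in the libraries labelled JMJD3 cKO TCM, the contrast was also computed with the labels of that line turned, a choice made after seeing the data. Turned, 18 members differed, 12 higher and 6 lower, beside 37.4% of all genes. Of the members that differed, 12 did so either way and 9 of these kept their sign. Among all 14545 genes tested 37.9% differed, 18.4% with the TRAP1 effect higher and 19.5% with it lower. Differences of at least 2-fold were called for 4 members with the TRAP1 effect higher and 2 with it lower, 20% of those tested, beside 7.34% of all genes (3.42% with the TRAP1 effect higher and 3.92% with it lower).

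Mmp14 rose in TRAP1 KO TCM and fell in JMJD3 cKO TCM, a difference of 1.88 ± 0.06 on the log2 scale (adjusted p = 7.81e-48, edgeR). Mmp12 fell in TRAP1 KO TCM and rose in JMJD3 cKO TCM, a difference of -1.65 ± 0.04 (adjusted p = 2.96e-42, edgeR). Mmp2 likewise fell with TRAP1 loss and rose in the libraries labelled JMJD3 cKO TCM (-2.53 ± 0.43, adjusted p = 5.86e-07, edgeR), and Mmp13 rose in the first and fell in the second (0.75 ± 0.07). Mmp9 rose in both comparisons, but by more with TRAP1 loss (0.56 ± 0.09, adjusted p = 7.84e-06, edgeR). Timp1 (1.77 ± 0.20) and Mmp25 (1.98 ± 0.22) also differed. For Timp2 the effects were 0.26 and 0.25, and their difference was 0.01 ± 0.03 (adjusted p = 0.895, edgeR). For Mmp8 it was 0.01 ± 0.17 (adjusted p = 0.971, edgeR), a wider interval. With the labels turned Mmp14 no longer differed (-0.09 ± 0.06, adjusted p = 0.208, edgeR) nor did Mmp2 (0.18 ± 0.43, adjusted p = 0.782, edgeR), while Timp2 did (0.51 ± 0.03), as did Mmp8 (1.29 ± 0.19). The differences for Mmp12 (0.63 ± 0.04), Mmp13 (-0.24 ± 0.07) and Mmp25 (-1.19 ± 0.23) changed sign, and those for Mmp9 (2.12 ± 0.09) and Timp1 (1.48 ± 0.20) kept it.

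Among the shedding enzymes the differences were small. They were 0.31 ± 0.04 for Adam15, 0.29 ± 0.04 for Adam17, 0.27 ± 0.02 for Adam8, 0.26 ± 0.03 for Adam9 and 0.14 ± 0.04 for Adam10, with the TRAP1 effect higher in all 5 as labelled. With the labels turned Adam9 no longer differed (-0.05 ± 0.03) and the other 4 still did, in the same direction. As labelled, Adam33 differed by 0.77 ± 0.14, Mmp19 by 0.63 ± 0.07 and Mmp27 by -0.99 ± 0.09. Adam1a differed by 1.29 ± 0.46, a call lost without TRAP1 KO TCM replicate 2 (adjusted p = 0.0565) or JMJD3 WT TCM replicate 1 (0.0700). Adamts10 differed by -0.22 ± 0.09 (adjusted p = 0.0394, edgeR). That call was lost with no filter (0.0842), a minimum of 50 counts (0.0519) or DESeq2 (0.0815), and without WT TCM replicate 2 (0.0977), TRAP1 KO TCM replicate 2 (0.0940), JMJD3 WT TCM replicate 3 (0.175), JMJD3 cKO TCM replicate 2 (0.136) or JMJD3 cKO TCM replicate 3 (0.0504).

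The wild-type sets themselves differed under the same medium. In JMJD3 WT TCM against WT TCM, 12 of 30 tested members were higher and 10 lower. Among all 14545 genes tested 61.3% were called, 30% higher and 31.3% lower. Groups did not overlap in 25 members, beside 64.2% of all genes. Differences of at least 2-fold were called for 7 members up and 3 down, 33.3% of those tested, beside 14.5% of all genes (8.78% up and 5.71% down). The sets also differed in sex-linked genes, with Xist at 844 CPM in JMJD3 WT TCM and at 0 counts in WT TCM, and Ddx3y at 0 counts in JMJD3 WT TCM and 86.4 CPM in WT TCM. Line, sex and any batch cannot be told apart here.

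Mmp25 averaged 27.5 ± 2.01 CPM in JMJD3 WT TCM, against 1.52 ± 0.389 CPM in WT TCM (log2 fold change 4.15 ± 0.14, adjusted p = 1.48e-46, edgeR). Mmp13 averaged 136 ± 1.36 and 16.2 ± 1.28 CPM in those groups (3.07 ± 0.05, adjusted p = 1.12e-70, edgeR). Timp1 averaged 16.1 ± 0.20 CPM in JMJD3 WT TCM, against 1.29 ± 0.115 CPM in WT TCM (3.64 ± 0.15, adjusted p = 1e-39, edgeR). In these genes every JMJD3 WT TCM library was above every WT TCM library. Timp1 lies on chromosome X, and the part of sex in its difference was not tested. Mmp8 was higher too (2.30 ± 0.14), while Mmp9 (-1.88 ± 0.07), Mmp2 (-2.35 ± 0.32) and Mmp14 (-0.60 ± 0.04) were lower. The neutrophil sum was 32.5 to 35.6 CPM in JMJD3 WT TCM, against 8.74 to 11.6 CPM in WT TCM, and the stromal sum 2.97 to 4.43 and 0.633 to 0.882 CPM. Endothelial markers summed to 147 to 148 CPM in JMJD3 WT TCM, against 14.5 to 18.4 CPM in WT TCM. Of these sums Kdr alone made up 142 and 14.5 CPM on average, and Cldn5 and Emcn were at 0 counts in both groups. Osteoclast markers summed to 63.8 to 66.8 and 25.1 to 25.6 CPM in those groups. The part of any such cells in the differences was not tested. Calls for Adamts1 (1.63 ± 0.55), Adamts13 (1.32 ± 0.44), Mmp11 (-1.52 ± 0.54) and Mmp28 (0.99 ± 0.37) were lost when single libraries were left out. Adamts1 was lost without WT TCM replicate 2 (adjusted p = 0.0502) and Adamts13 without JMJD3 WT TCM replicate 3 (0.0842). Mmp11 was lost without WT TCM replicate 3 (0.101) or JMJD3 WT TCM replicate 3 (0.0657), and Mmp28 without WT TCM replicate 3 (0.138) or JMJD3 WT TCM replicate 1 (0.0600). Adam19 (-0.40 ± 0.21, not called) was called without JMJD3 WT TCM replicate 1 (0.0226). Adam1a, Adam4, Adam22, Adam32, Adam33, Adamts7 and Adamts14 were not called, at log2 fold changes from -0.68 to 0.97. Adam8 (0.25 ± 0.02), Adam9 (0.23 ± 0.02), Mmp19, Mmp27 and Adamts6 were higher, and Adam10, Adam15, Adam17, Adamts10, Mmp12 and Timp2 lower.

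Summed levels of inhibitors and enzymes were set side by side as a description with no test. Per kilobase of merged exons the 22 MMP genes summed to 127 ± 3.51 CPM in TRAP1 KO TCM, 147 ± 3.18 in JMJD3 cKO TCM, 135 ± 0.747 in JMJD3 WT TCM, 90.3 ± 2.45 in WT TCM and 91.9 ± 2.44 in WT naive. The 4 TIMP genes summed to 137 ± 1.87, 122 ± 1.55, 107 ± 2.79, 112 ± 1.02 and 149 ± 2.42 CPM per kilobase in the same order. MMP transcripts over TIMP transcripts thus stood at 0.926 ± 0.0276 in TRAP1 KO TCM, 1.20 ± 0.0237 in JMJD3 cKO TCM, 1.26 ± 0.0330 in JMJD3 WT TCM, 0.806 ± 0.0145 in WT TCM and 0.618 ± 0.0244 in WT naive (SD). The ratio did not overlap between TRAP1 KO TCM and WT TCM, between JMJD3 cKO TCM and JMJD3 WT TCM, or between WT TCM and WT naive. Per kilobase of the longest transcript it was 1.20 ± 0.0339, 1.47 ± 0.0251, 1.47 ± 0.0396, 1.07 ± 0.0195 and 0.821 ± 0.0306 in the same order of groups. With that length JMJD3 cKO TCM and JMJD3 WT TCM overlapped while the other 2 pairs did not, and the ratio lay above 1 in TRAP1 KO TCM and WT TCM, so neither its side of 1 nor the gap within the JMJD3 line is independent of the length used. In WT TCM the MMP sum was within 1 SD of that in WT naive while the TIMP sum was lower. Within that MMP sum Mmp14 and Mmp9 were higher and Mmp12 and Mmp13 lower in WT TCM than in WT naive.

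**Figure D5:**
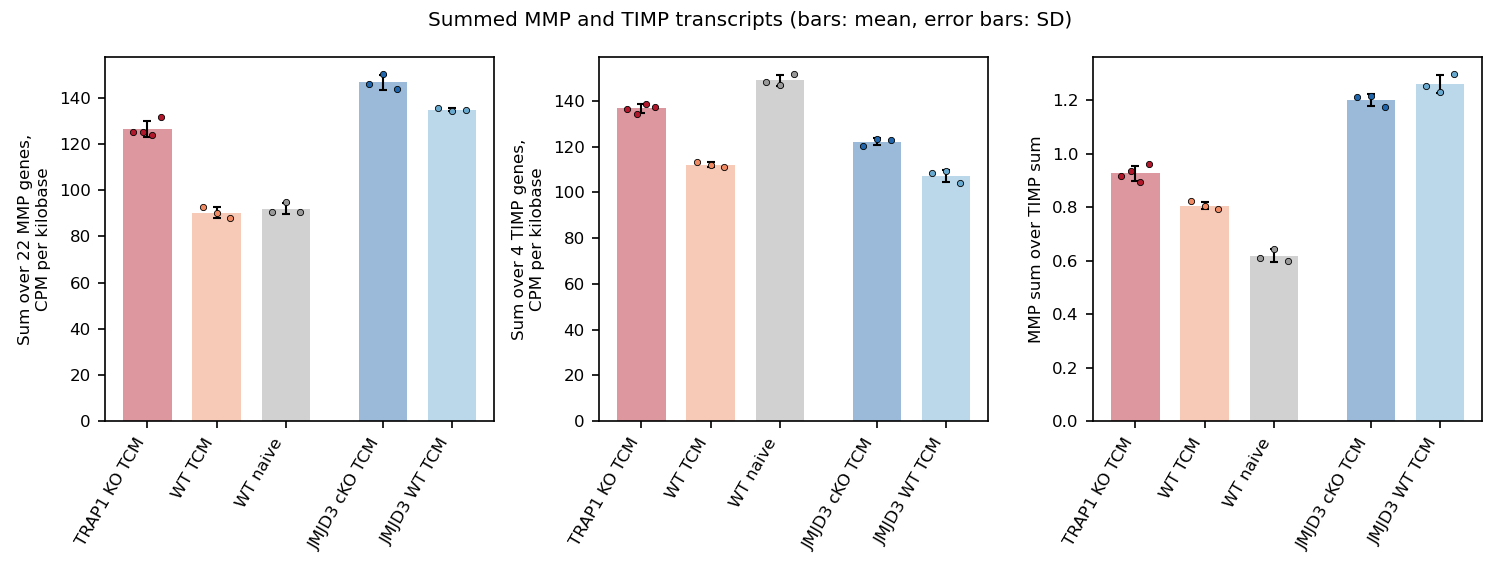
Summed CPM per kilobase of the 22 MMP genes, of the 4 TIMP genes, and their ratio, with 1 point per library, bars for the group mean and error bars for the SD. The ratio lies between 0.598 and 0.645 in WT naive and above 1.17 in every library of the JMJD3 line.

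Genes that process or anchor these enzymes were looked at in 6 lists. The activation and maturation list (15 genes, 11 tested) had 5 higher and 2 lower in TRAP1 KO TCM against WT TCM, 5 higher and 2 lower in WT TCM against WT naive, and 2 higher and 5 lower in JMJD3 cKO TCM against JMJD3 WT TCM. Its median log2 fold changes were 0.01, 0.11 and 0.03, beside 0.01, -0.01 and 0.01 for all genes, of which 42.2%, 42.2% and 35.1% were called in these comparisons. Those shares of all genes hold for each list that follows. Rhbdf2, the carrier that brings ADAM17 to the cell surface, averaged 144 ± 1.96 CPM in TRAP1 KO TCM and 105 ± 3.04 CPM in WT TCM (0.46 ± 0.03). It averaged 101 ± 3.24 CPM in JMJD3 cKO TCM and 130 ± 0.776 CPM in JMJD3 WT TCM (-0.36 ± 0.04). Furin, which cuts the propeptides of many ADAMs and of membrane-anchored MMPs, rose in TRAP1 KO TCM (0.16 ± 0.03) and fell in JMJD3 cKO TCM (-0.23 ± 0.04). Frmd8, a partner of the ADAM17 carrier, and the convertase gene Pcsk7 fell in JMJD3 cKO TCM (-0.32 ± 0.04 and -0.30 ± 0.04). Bsg (0.29 ± 0.02), Tspan14 (0.18 ± 0.03), a partner of ADAM10, and Rhbdf2 (0.16 ± 0.03) were higher in WT TCM than in WT naive. Pdia6 fell there (-0.11 ± 0.02) and in TRAP1 KO TCM against WT TCM (-0.35 ± 0.02), where Tspan5 also fell (-0.72 ± 0.12).

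The plasminogen system (10 genes), which can start MMP activation cascades outside the cell, had 7 of 8 tested genes higher and 1 lower in TRAP1 KO TCM against WT TCM, with a median log2 fold change of 0.44 beside 0.01 for all genes. In WT TCM against WT naive 4 of 8 rose and 3 fell (0.11 beside -0.01), and in JMJD3 cKO TCM against JMJD3 WT TCM 1 of 6 rose and 4 fell (-0.13 beside 0.01). Plau, the urokinase gene, averaged 667 ± 6.08 CPM in TRAP1 KO TCM and 384 ± 3.34 CPM in WT TCM (0.81 ± 0.02). It fell in WT TCM against WT naive (-0.18 ± 0.02) and rose in JMJD3 cKO TCM against JMJD3 WT TCM (0.47 ± 0.03). Plaur, the urokinase receptor gene, rose in WT TCM against WT naive (0.91 ± 0.06) and in TRAP1 KO TCM against WT TCM (0.23 ± 0.05), as did S100a10 (0.46 ± 0.03 and 0.21 ± 0.03). Anxa2, its partner, rose in TRAP1 KO TCM (0.15 ± 0.02) and fell in JMJD3 cKO TCM (-0.11 ± 0.03), where Plgrkt fell too (-0.18 ± 0.05).

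Of the regulators other than TIMPs (20 genes, 9 tested), 3 rose and 3 fell in TRAP1 KO TCM against WT TCM, 4 rose and 2 fell in WT TCM against WT naive, and 3 rose and 3 fell in JMJD3 cKO TCM against JMJD3 WT TCM. The medians were 0.05, 0.08 and 0.06, beside 0.01, -0.01 and 0.01 for all genes. Thbs1, the thrombospondin-1 gene, averaged 186 ± 4.30 CPM in WT TCM and 12.1 ± 0.205 CPM in WT naive (3.93 ± 0.04). It was lower in TRAP1 KO TCM (110 ± 1.61 CPM) than in WT TCM (-0.75 ± 0.03), and lower in JMJD3 cKO TCM (403 ± 11.6 CPM) than in JMJD3 WT TCM (911 ± 29.7 CPM, -1.17 ± 0.03). Lrp1, a receptor that clears MMPs and TIMPs, averaged 2346 ± 44.9 CPM in TRAP1 KO TCM and 2760 ± 24.5 CPM in WT TCM (-0.23 ± 0.01). Cd44, a surface anchor of MMP9, rose in WT TCM against WT naive (0.39 ± 0.02) and in JMJD3 cKO TCM (0.30 ± 0.03). The tetraspanin gene Cd9 rose in TRAP1 KO TCM (0.11 ± 0.03) and in JMJD3 cKO TCM (0.30 ± 0.04), and Cd151 fell in WT TCM against WT naive (-0.22 ± 0.04) and in JMJD3 cKO TCM (-0.18 ± 0.04). Adamtsl4 rose in TRAP1 KO TCM (0.49 ± 0.11), and Adamtsl5 fell in WT TCM against WT naive (-0.66 ± 0.10).

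Surface proteins known to be shed by ADAMs (24 genes) had 9 of 21 tested higher and 4 lower in TRAP1 KO TCM against WT TCM (median 0.01 beside 0.01 for all genes). In WT TCM against WT naive 10 of 21 rose and 8 fell, and in JMJD3 cKO TCM against JMJD3 WT TCM 4 of 20 rose and 12 fell (median -0.17 beside 0.01). Tnf averaged 62.2 ± 2.89 CPM in TRAP1 KO TCM and 43.3 ± 1.97 CPM in WT TCM (0.53 ± 0.04). Icam1 (0.80 ± 0.03), Notch1 (0.47 ± 0.03) and Csf1r (0.26 ± 0.01) rose there as well. Axl, a receptor of dying cells, rose in WT TCM against WT naive (1.48 ± 0.03), where Notch2 (0.43 ± 0.02) and Csf1r (0.23 ± 0.01) were also higher and Trem2 was lower (-0.47 ± 0.02). Axl (-0.51 ± 0.03) and F11r (-1.41 ± 0.12) fell in JMJD3 cKO TCM, where Alcam (0.40 ± 0.03) and Trem2 (0.28 ± 0.03) rose.

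Matrix substrates (20 genes) had 12 of 14 tested higher and none lower in TRAP1 KO TCM against WT TCM, and 3 higher and 9 lower in WT TCM against WT naive. The medians were 3.47 and -4.50, or 3.29 and -4.21 with the 2 genes that had a group at 0 counts set at their limit of 3 counts. Col1a1, Col1a2 and Col3a1 had 6, 5 and 0 counts in WT TCM and passed the filter through the other groups of that model. The counts and medians of both comparisons therefore depend on how such genes entered the test. Col1a1 averaged 0.113 ± 0.0131 CPM in WT TCM and 5.97 ± 1.05 CPM in WT naive (-5.67 ± 0.34), and Col1a2 fell by a like amount (-5.84 ± 0.36). These collagens are also among the stromal markers, whose sums moved the same way in both comparisons (above), and their part was not tested. Spp1, the osteopontin gene, averaged 2836 ± 77.1 CPM in TRAP1 KO TCM and 1699 ± 19.8 CPM in WT TCM (0.75 ± 0.01), and Lamc1 (0.48 ± 0.03) and Fn1 (0.62 ± 0.09) rose too. Spp1 (0.30 ± 0.02) and Lamc1 (0.31 ± 0.04) also rose in WT TCM against WT naive. In JMJD3 cKO TCM against JMJD3 WT TCM 5 genes were tested, of which Spp1 (0.44 ± 0.07) and Fn1 (1.33 ± 0.29, named after its values were seen) rose and Lamc1 fell (-0.13 ± 0.04).

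Factors known to bind MMP promoters (18 genes) had 12 of 17 tested higher and 4 lower in TRAP1 KO TCM against WT TCM (median 0.17), 11 of 17 higher and 3 lower in WT TCM against WT naive (0.21), and 1 of 16 higher and 10 lower in JMJD3 cKO TCM against JMJD3 WT TCM (-0.26). Over all genes tested the medians were 0.01, -0.01 and 0.01. Ets2 averaged 278 ± 4.69 CPM in TRAP1 KO TCM and 164 ± 6.71 CPM in WT TCM (0.77 ± 0.03), and 164 ± 6.71 CPM in WT TCM against 46.8 ± 0.630 CPM in WT naive (1.81 ± 0.03). The AP-1 gene Fosl2 rose in TRAP1 KO TCM (0.68 ± 0.04) and in WT TCM against WT naive (0.99 ± 0.05), as did Cebpb (0.30 ± 0.03 and 0.58 ± 0.03). Spi1 rose in TRAP1 KO TCM (0.17 ± 0.02), and Stat3 in WT TCM against WT naive (0.51 ± 0.03). Junb, another AP-1 gene, averaged 230 ± 6.15 CPM in JMJD3 cKO TCM and 318 ± 10.2 CPM in JMJD3 WT TCM (-0.46 ± 0.03). Jun (-0.23 ± 0.03), Stat3 (-0.31 ± 0.03) and Runx1 (-0.35 ± 0.04) fell there too.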

How the data were processed

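RNA was measured in 16 libraries in 5 groups. The labels' protocols name Ribo-Zero removal of ribosomal RNA, the TruSeq Stranded kit and an Illumina HiSeq. The authors deposited 1 table of whole-number counts per library, used here as raw counts. Per the submitters' processing notes, the tools included RSEM, StringTie, Bowtie2 and HISAT, and the build was mm10. The sources used here give neither their roles and versions nor the annotation release and strand setting, so overlapping genes (Timp1 with Syn1, Adam17 with Iah1, Adam1a with Tmem116 and Mapkapk5, Adam4 with Cox16, Adamts7 with Tbc1d2b, Mmp11 with Chchd10, Mmp19 with Tmem198b, Timp2 with Cep295nl) have uncertain values.

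The test was edgeR's quasi-likelihood test (edgeR 4.0.16, R 4.3.3). Low genes were removed by filterByExpr (minimum 10 counts), libraries were scaled by TMM, the fit was robust, and p-values were adjusted by Benjamini-Hochberg over all genes tested. Genes with an adjusted p under 0.05 are called. The TRAP1 and TCM comparisons came from 1 model of 10 libraries, the JMJD3 effect from its own 6 libraries, and the comparison of wild-type sets and the contrast of effects from all 16. CPM values use TMM-scaled totals over 16 libraries and are mean ± SD. Log2 fold changes are the first-named group over the second. Their SE was derived from the test, as the absolute log2 fold change over the square root of the quasi-likelihood F statistic. Apart from the share of Adam8 in the family counts and the parts of marker sums, levels of different genes were compared only per kilobase. Alternatives were other scalings, filters, DESeq2 (1.42.0), other libraries in the model, a replicate block, leaving out each library and, added after seeing the data, turned labels of the JMJD3 line and another length for the MMP to TIMP ratio. The models were tested on simulated data.

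All members that passed the filter are named. Those called with at least a 2-fold change and 1 CPM in a group are given library by library, and Mmp12, Mmp13 and Mmp14 are also given so elsewhere, a choice made after their values were seen. Up to 4 called genes of each list, with the smallest adjusted p and at least 5 CPM in a group, are named per comparison, other than 1 gene that is not reported here. Members, lists and rules were chosen with earlier results of these data known, and no list was tested as a set. Protein sequences were not used here. Replicate numbers did not pair the libraries: correlations of deviations for same-numbered libraries lay between -0.028 and 0.020 over 12 pairs. No replicate pair agreed within sampling noise (chi-square per degree of freedom 1.74 to 2.72). At low counts depth limits precision, and counting intervals and limits (3 counts) cover counting error only.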

Additional observations from a re-analysis of the deposited data

Results flagged for a closer look

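In TRAP1 KO TCM, the library with the highest Mmp12 stood apart from the others, at 147.12 CPM, where the other 3 lay between 132.6 and 133.7 CPM. It was the only such library among 30 tested members looked at in that group, and chance flags about 1 in 20 groups.

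The effect of TRAP1 loss differed from the difference between the libraries labelled JMJD3 cKO TCM and JMJD3 WT TCM for 17 of 30 members (edgeR's quasi-likelihood test of the difference, 37.9% of all genes). Kdm6b was not lower in the libraries labelled cKO (log2 fold change 0.04, adjusted p = 0.749, edgeR), and with the labels of that line turned 18 members differed, of which 12 were among the 17 and 9 kept their sign. On the log2 scale, with the labels as given and as the TRAP1 effect minus the JMJD3 effect, the differences were 1.88 for Mmp14, 1.98 for Mmp25, 1.77 for Timp1, 0.75 for Mmp13, 0.63 for Mmp19 and 0.56 for Mmp9. They were -2.53 for Mmp2, -1.65 for Mmp12 and -0.99 for Mmp27. Among the ADAM and ADAMTS genes they were 1.29 for Adam1a, 0.77 for Adam33, 0.31 for Adam15, 0.29 for Adam17, 0.27 for Adam8, 0.26 for Adam9, 0.14 for Adam10 and -0.22 for Adamts10. The effects came from different mouse lines, and line and genotype effect cannot be told apart in the size of the difference.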

How the results depend on the processing

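Apart from the turned labels given last, no alternative changed the direction of a member in a called result. With a minimum of 50 counts, members called lower numbered 3 in TRAP1 KO TCM against WT TCM and 2 in the contrast of the TRAP1 and JMJD3 effects, in place of 5 and 4. At that minimum Mmp2 and Mmp28 were not tested, and Adamts10 missed the threshold in the contrast (adjusted p = 0.0519). Every other count of members or genes called stayed within 1.5 times its main value. Leaving out each replicate in turn, members called higher numbered 14 to 15 and lower 4 to 5 in TRAP1 KO TCM against WT TCM, 6 to 7 and 11 in WT TCM against WT naive, 7 to 8 and 5 to 7 in JMJD3 cKO TCM against JMJD3 WT TCM, 12 to 13 and 3 to 4 in the contrast, and 11 to 12 and 9 to 11 in JMJD3 WT TCM against WT TCM. Members called in all numbered 17 to 21, 15 to 20, 12 to 15, 14 to 17 and 17 to 22 under the remaining alternatives, in the same order. At least 1 alternative moved the call of 5, 1, 5, 2 and 5 members in that order, and the cause was not tested.

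The replicate numbers did not pair the libraries, and with the replicate block 19, 18, 13, 17 and 22 members were called in the same order. The block left Adam33 (adjusted p = 0.0649) and Mmp28 (0.0542) uncalled and Adam1a called (0.0437) in TRAP1 KO TCM against WT TCM, and Adamts13 uncalled (0.0595) in JMJD3 cKO TCM against JMJD3 WT TCM. Other scalings moved the median log2 fold change of all genes by at most 0.032.

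Among choices added after seeing the data, turning the labels of the JMJD3 line changed the sign of the contrast for several members. Of those called with the labels as given or turned, these were Mmp12 (0.63), Mmp13 (-0.24), Mmp14 (-0.094), Mmp2 (0.18), Mmp25 (-1.19), Mmp11 (2.05), Adam9 (-0.053), Adam19 (1.24), Adam33 (-0.24) and Adamts6 (-0.77). Adam4, Adam32, Adamts1, Adamts13 and Adamts14, called neither way, also changed sign. Taking the longest transcript as the length moved MMP over TIMP transcripts to 1.20 in TRAP1 KO TCM, 1.47 in JMJD3 cKO TCM, 1.47 in JMJD3 WT TCM, 1.07 in WT TCM and 0.821 in WT naive.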

Other observations

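Members below the filter had too few counts for the model, and the ratios here carry 95% intervals for counting error alone. Mmp10, the stromelysin-2 gene, had 20 counts in TRAP1 KO TCM and 3 in WT TCM, a ratio of scaled counts of 4.57 (1.36 to 24.0), and 3 in WT TCM against 15 in WT naive, a ratio of 0.246 (0.0457 to 0.871). Mmp15 and Mmp17, both membrane-anchored MMPs, had 2 counts each in WT TCM, against 19 and 15 in WT naive, ratios of 0.130 (0.0147 to 0.538) and 0.164 (0.0182 to 0.707). In TRAP1 KO TCM against WT TCM their ratios were 3.43 (0.730 to 32.2) and 3.08 (0.638 to 29.3), whose intervals include no difference.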
